A study of Homo sapiens with 8 samples.

Results

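The 10 genes described here, of 25906 in the expression table and all among the 12583 with enough signal to test, make, break down and regulate the polyamines. They were taken by symbol: SRM, SMS, ODC1, AMD1, OAZ1, OAZ2, AZIN1, SAT1, SMOX and MTAP. Their messenger RNA was measured by RNA sequencing in 2 established human cell lines of multiple myeloma, a cancer of plasma cells, named MM.1S and NCI-H929. Cells of each line had been transduced by lentivirus for 72 hours with an empty vector (EV) or with a vector that overexpresses CTBP2, a transcriptional corepressor. The 4 groups, MM.1S EV, MM.1S CTBP2, NCI-H929 EV and NCI-H929 CTBP2, had 2 libraries each, described as biological duplicates. P-values measure the spread left among these libraries only. In fits over both lines that spread also holds any difference of the CTBP2 effect between the lines. The series title names MYC and IRF4 as the axis CTBP2 acts on, and ODC1 and SRM are known MYC targets. Both lines are single lines grown in culture, and transduced cells were compared as whole cultures, so a lower level in each cell and a changed mix of cells cannot be told apart.

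Polyamines (putrescine, spermidine and spermine) are small positively charged molecules that bind nucleic acids and that growing cells need in quantity. ODC1 makes putrescine from ornithine. AMD1 supplies the aminopropyl donor, which SRM adds to putrescine to give spermidine and SMS adds to spermidine to give spermine. Antizymes (OAZ1, OAZ2) bind ODC1 and send it to the proteasome, AZIN1 holds antizyme off, SAT1 and SMOX run the path backwards, and MTAP recycles the methylthioadenosine that SRM and SMS leave behind. Plasma cells and their tumours make large amounts of secreted protein, and spermidine is also the substrate that turns lysine into hypusine in the translation factor eIF5A.

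Values are FPKM, fragments counted per length of transcript and per size of library, so levels of different genes can be set side by side. CTBP2 itself followed the vector label in all 8 libraries, at 0.148 to 0.213 FPKM with EV and 1621 to 5884 FPKM with CTBP2. The line did not follow the label in 2 libraries. CCND2, which marks MM.1S here, was at 0.058 FPKM in the CTBP2 library labelled MM.1S replicate 2, and FGFR3, which marks NCI-H929, was at 22.2 FPKM there. In the CTBP2 library labelled NCI-H929 replicate 2, CCND2 was at 60.7 FPKM and FGFR3 at 0.040 FPKM. The fold change of each member over both lines is therefore given for all 8 libraries with the labelled lines, for the 6 other libraries, and for 8 libraries with the line read from a level above 10 FPKM of CCND2 or FGFR3 and the vector as labelled. Other results name the fit they come from. All 3 fits use the same 4 EV libraries. As labelled, the spread also holds the line difference of the 2 libraries against their label. The 6 libraries have 1 CTBP2 library per line and so no CTBP2 duplicates. The 6 plasma cell markers checked summed to 1287 to 2286 FPKM with EV and 1016 to 1853 FPKM with CTBP2. Among them IRF4 was at 131.9 to 160.3 FPKM with EV and 59.7 to 69.6 FPKM with CTBP2. All CTBP2 libraries of IRF4 thus lay below all EV libraries, as for 7.45% of all genes tested. The ranges of the other plasma cell markers overlapped between the vectors. Of the markers of other cells, the 3 of monocytes were under 1 FPKM in all 8 libraries, as were the T cell genes CD3D and CD2, while CD3E was at 0.527 to 3.66 FPKM with EV and 2.44 to 53.1 FPKM with CTBP2. KRT18, an epithelial keratin, was at 13.8 to 26.3 FPKM in the 4 libraries with FGFR3. The part of IRF4, CD3E and KRT18 in the results was not tested.

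With CTBP2 the transcripts of all 4 enzymes that build polyamines, ODC1, AMD1, SRM and SMS, and of the recycling enzyme MTAP were lower, those of the breakdown enzymes SAT1 and SMOX were higher, and no call was made for OAZ1, OAZ2 or AZIN1. This was so in the 6 libraries and again with the line read from its marker genes, where the same 7 members passed (limma, adjusted p under 0.05), 5 lower and 2 higher. In the 8 libraries with labelled lines 1 of the 10 passed, SRM, which was lower. With no filter on low values, which brings 25906 genes into the adjustment, 0 of 10 passed in the 6 libraries (limma adjusted p from 0.0630 for ODC1, with 8 members at an unadjusted p under 0.05 there, as 22.2% of all genes were) and 6 by marker genes, MTAP being lost. Of all genes, 0.309% were then called lower and 0.764% higher in the 6 libraries, and 3.56% and 4.65% by marker genes. Against the background of all genes tested, 1.81% were called lower and 1.53% higher in the 8 libraries as labelled, 13.0% and 11.5% in the 6 libraries, and 16.7% and 17.4% with the line read from marker genes. The median log2 fold change of the 10 members was -0.44 against 0.04 for all genes tested in the 8 libraries, and -0.50 against 0.01 in the 6. Members were chosen with earlier results of these data known, so these contrasts with all genes are a description. The marker-gene fit holds all of the 6 libraries and is not a second, independent result. All 4 CTBP2 libraries lay below all 4 EV libraries for SRM, SMS and ODC1 and above them for SMOX, where 7.45% of all genes lay wholly below and 7.21% wholly above. This count needs no line label, but it was made on FPKM as deposited and was not repeated under other scalings. For ODC1 the lowest EV library was at 181.7 FPKM and the highest CTBP2 library at 180.8 FPKM.

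**Figure D1:**
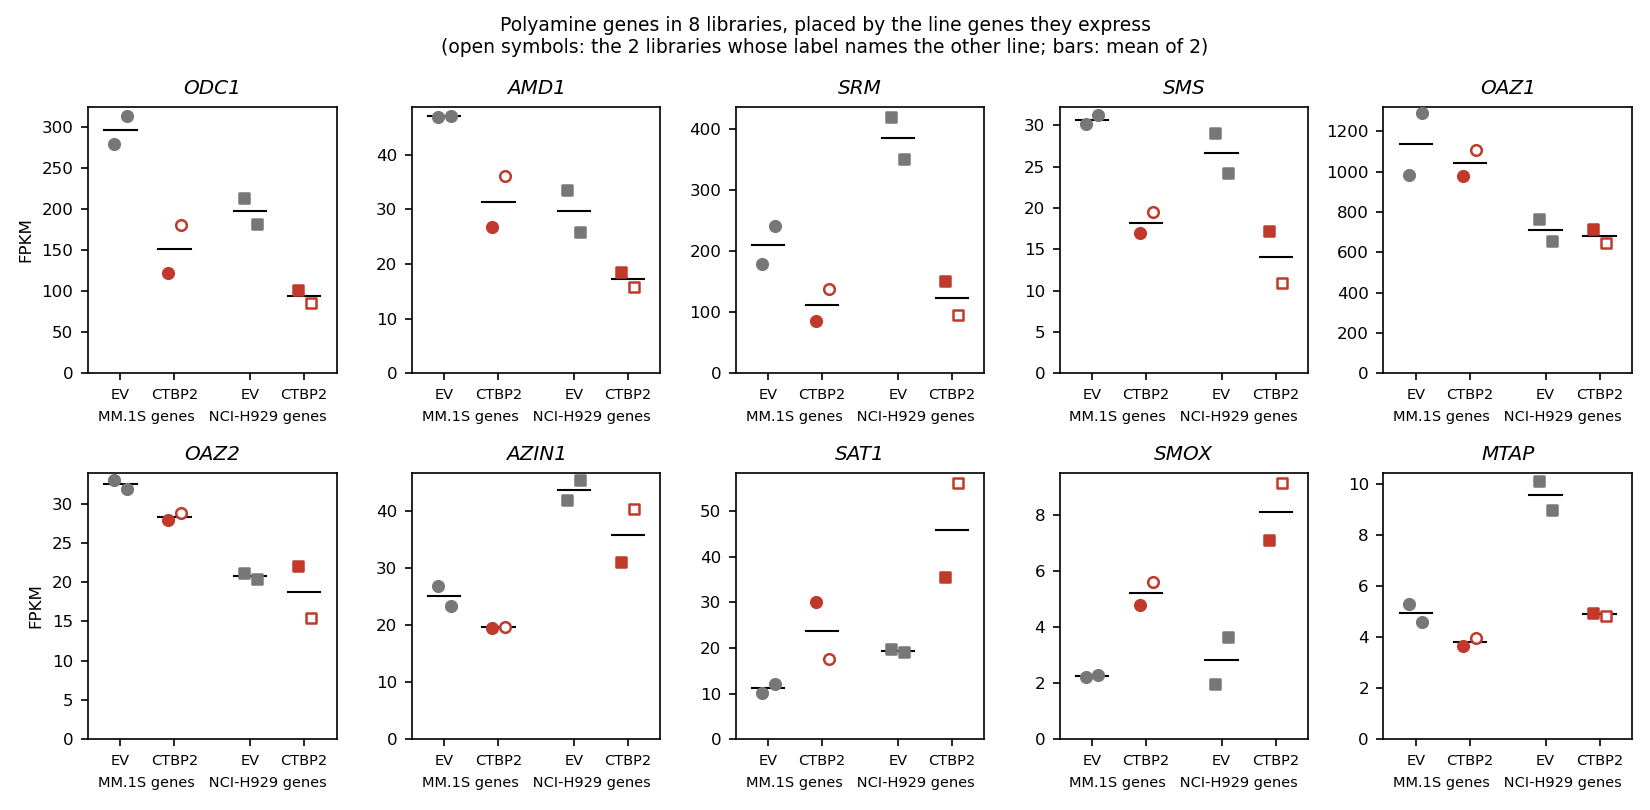
Each panel plots 1 gene's FPKM in the 8 libraries, EV in grey and CTBP2 in red, circles for libraries with CCND2 above 10 FPKM (MM.1S) and squares for those with FGFR3 above 10 FPKM (NCI-H929). Bars are means of 2 libraries, and open symbols are the 2 libraries whose label names the other line. In both lines so read, both CTBP2 libraries lie below both EV libraries for SRM, SMS, ODC1, AMD1, MTAP and AZIN1, and above them for SAT1 and SMOX. OAZ1 overlaps in both lines and OAZ2 in NCI-H929. The share of all genes so placed was not counted. AZIN1 was not called.

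SRM (spermidine synthase, Entrez 6723) had the largest decrease among the members over both lines together, in each of the 3 fits. In MM.1S alone the value of ODC1 was further below 0 than that of SRM as labelled (-1.52 against -1.19) and by marker genes (-0.99 against -0.93), and of these only the -0.99 passed. Its start and that of ODC1 are the only ones among 8 members searched (all but AZIN1 and SMOX) that hold the letters CACGTG, the E-box that MYC and its partner MAX bind, in RefSeq windows of 300 bases from 250 before to 50 after a transcription start. CACGTG reads the same on both strands, and it occurs in 7.26% of all 35116 such windows and in at least 1 window of 8.77% of 27305 genes. The stretch of SRM that holds it is shown because SRM is the member called in all 3 fits. It lies on the minus strand at chr1:11060025-11060268 (RefSeq, GRCh38.p14), upstream of the gene and outside annotated exons, and ends 7 bases before the start. The match, in capitals, is 199 bases before the start.

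SRM: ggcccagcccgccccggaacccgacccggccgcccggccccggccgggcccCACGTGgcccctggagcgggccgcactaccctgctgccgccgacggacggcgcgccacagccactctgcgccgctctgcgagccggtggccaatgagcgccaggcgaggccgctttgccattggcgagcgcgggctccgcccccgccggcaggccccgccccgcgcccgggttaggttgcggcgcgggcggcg

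The letters are a description of the sequence, and binding was not measured here. SRM was at 178.0 and 240.7 FPKM in MM.1S EV and at 418.5 and 349.9 FPKM in NCI-H929 EV. With CTBP2 it was at 84.8 FPKM in MM.1S replicate 1, 151.1 FPKM in NCI-H929 replicate 1, 95.7 FPKM in the library labelled MM.1S replicate 2 and 137.3 FPKM in that labelled NCI-H929 replicate 2. Every CTBP2 library was below every EV library. The log2 fold change, on log2(FPKM + 1) as everywhere below, was -1.30 (SE 0.16 and limma adjusted p = 0.0309) in the 8 libraries as labelled. It was -1.31 (SE 0.17 and limma adjusted p = 0.00577) in the 6 libraries and -1.30 (SE 0.24 and limma adjusted p = 0.00652) with the line read from marker genes. The labelled call of SRM was lost in 6 of the 8 fits that left out 1 library, with limma adjusted p = 0.104 and 0.143 without MM.1S EV replicate 1 and 2, 0.154 and 0.0762 without NCI-H929 EV replicate 1 and 2, and 0.129 and 0.09997 without the replicate 1 CTBP2 library of MM.1S and NCI-H929. It stood, at 0.0438 and 0.0362, without either library that goes against its label, and in all 8 such fits with the line read from marker genes. With no term for the line it was also lost (limma adjusted p = 0.0880). GENCODE annotates processed pseudogenes of SRM, AMD1 and MTAP, and how fragments shared with them were counted is not given in the sources used here.

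ODC1 (ornithine decarboxylase, Entrez 4953), the first and most tightly regulated enzyme of the path, was the third most abundant member. One of its RefSeq starts has CACGTG 29 bases before the start and again 6 bases after it. The bases before this start, minus strand at chr2:10448013-10448120 (RefSeq, GRCh38.p14), lie in intron 1 of a longer ODC1 transcript in the GENCODE annotation, and are shown for comparison with SRM.

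ODC1: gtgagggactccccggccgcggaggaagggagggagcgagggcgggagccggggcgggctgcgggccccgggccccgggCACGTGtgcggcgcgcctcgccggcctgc

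ODC1 was at 280.2 and 313.6 FPKM in MM.1S EV and 213.8 and 181.7 FPKM in NCI-H929 EV. In CTBP2 libraries it stood at 121.8 FPKM in MM.1S replicate 1, 101.7 FPKM in NCI-H929 replicate 1, 86.1 FPKM in the library labelled MM.1S replicate 2 and 180.8 FPKM in that labelled NCI-H929 replicate 2. The CTBP2 and EV libraries did not overlap, but the highest CTBP2 library was within 1 FPKM of the lowest EV library, and these express the genes of different lines. For ODC1 the log2 fold change was -1.03 (SE 0.29 and limma adjusted p = 0.0912) in the 8 libraries as labelled, and did not pass. It fell by 1.11 (SE 0.16 and limma adjusted p = 0.00608) in the 6 libraries and by 1.03 (SE 0.16 and limma adjusted p = 0.00412) with the line read from marker genes.

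MYC, the transcription factor whose targets include ODC1 and SRM, was at 189.9 and 188.0 FPKM in MM.1S EV and 114.6 and 92.9 FPKM in NCI-H929 EV. After CTBP2 transduction it was at 133.9 FPKM in MM.1S replicate 1, 27.8 FPKM in NCI-H929 replicate 1, 26.8 FPKM in the library labelled MM.1S replicate 2 and 138.7 FPKM in that labelled NCI-H929 replicate 2. Within each line as read from its marker genes, 2 libraries against 2, MYC, ODC1 and SRM did not overlap between EV and CTBP2. The share of all genes so apart was not counted. The log2 fold change of MYC was -1.17 as labelled (limma adjusted p = 0.329) and did not pass. It was -1.17 in the 6 libraries and -1.17 by marker genes (limma adjusted p = 0.0106). In the 6 libraries MYC was at -0.49 in MM.1S and -1.85 in NCI-H929, ODC1 at -1.28 and -0.95, and SRM at -1.28 and -1.33. Among EV libraries MYC and ODC1 were both higher in MM.1S than in NCI-H929 and SRM was lower. The part of MYC in the changes of these genes was not tested.

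AMD1 (S-adenosylmethionine decarboxylase, Entrez 262) was at 47.0 and 47.2 FPKM in MM.1S EV and 33.6 and 25.9 FPKM in NCI-H929 EV. With CTBP2 it was at 26.8 FPKM in MM.1S replicate 1, 18.5 FPKM in NCI-H929 replicate 1, 15.9 FPKM in the library labelled MM.1S replicate 2 and 36.1 FPKM in that labelled NCI-H929 replicate 2. The last of these lay above both NCI-H929 EV libraries and below both MM.1S EV libraries, so the vectors overlap over the series. Within a line read from marker genes, 2 libraries against 2, AMD1 did not overlap, and the share of all genes so apart was not counted. Its log2 fold change was -0.67 (SE 0.31 and limma adjusted p = 0.261) as labelled, -0.72 (SE 0.15 and limma adjusted p = 0.0153) in the 6 libraries and -0.67 (SE 0.14 and limma adjusted p = 0.00865) by marker genes. Without MM.1S EV replicate 2 the 6-library call of AMD1 was lost at the margin (limma adjusted p = 0.0501).

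SMS (spermine synthase, Entrez 6611) was at 30.2 and 31.2 FPKM in MM.1S EV and 29.04 and 24.2 FPKM in NCI-H929 EV. In CTBP2 libraries it stood at 16.9 FPKM in MM.1S replicate 1, 17.2 FPKM in NCI-H929 replicate 1, 10.9 FPKM in the library labelled MM.1S replicate 2 and 19.5 FPKM in that labelled NCI-H929 replicate 2, all below EV. The log2 fold change of SMS was -0.81 (SE 0.20 and limma adjusted p = 0.0703) as labelled, -0.71 (SE 0.14 and limma adjusted p = 0.0137) in the 6 libraries and -0.81 (SE 0.15 and limma adjusted p = 0.00623) by marker genes.

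None of the regulators of ODC1 protein was called in any of the 3 fits. OAZ1 (antizyme 1, Entrez 4946) was the most abundant member by far, at 982.8 and 1289 FPKM in MM.1S EV, 764.8 and 653.7 FPKM in NCI-H929 EV, and 645.9 to 1106 FPKM in the 4 CTBP2 libraries. The CTBP2 libraries spanned almost the same range as the EV libraries and were ordered by line: those with CCND2 had 980.2 and 1106 FPKM, those with FGFR3 714.7 and 645.9 FPKM. The log2 fold change of OAZ1 was -0.08 as labelled (95% confidence interval -0.73 to 0.56 and limma adjusted p = 0.901), -0.09 in the 6 libraries (-0.50 to 0.32, 0.727) and -0.08 by marker genes (-0.47 to 0.30, 0.718). None of these intervals reaches a fall as large as that of ODC1, and all hold a small change. OAZ2 (antizyme 2, Entrez 4947) was at 20.4 to 33.0 FPKM with EV and 15.4 to 28.8 FPKM with CTBP2, with log2 fold changes of -0.18 as labelled (interval -0.79 to 0.44 and limma adjusted p = 0.756), -0.06 in the 6 libraries (-0.38 to 0.26, 0.763) and -0.18 by marker genes (-0.45 to 0.10, 0.281). These small negative values turned positive when library totals were made equal without immunoglobulin genes and CTBP2, at 0.21 for OAZ1 and 0.11 for OAZ2 in both fits of 8 libraries, and OAZ1 also under quantile normalization, at 0.25.

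AZIN1 (antizyme inhibitor 1, Entrez 51582), which resembles ODC1 and draws antizyme away from it, was at 26.9 and 23.4 FPKM in MM.1S EV and 42.0 and 45.5 FPKM in NCI-H929 EV. Under CTBP2 it was at 19.5 FPKM in MM.1S replicate 1, 31.2 FPKM in NCI-H929 replicate 1, 40.4 FPKM in the library labelled MM.1S replicate 2 and 19.7 FPKM in that labelled NCI-H929 replicate 2. Both CTBP2 libraries of a line, as read from marker genes, lay below both EV libraries of that line. The share of all genes so placed was not counted. The log2 fold change of AZIN1 was -0.31 (SE 0.31 and limma adjusted p = 0.610) as labelled, -0.41 (SE 0.14 and limma adjusted p = 0.0619) in the 6 libraries and -0.31 (SE 0.12 and limma adjusted p = 0.0625) by marker genes, and did not pass. It passed by marker genes without the CTBP2 library labelled MM.1S replicate 2 (-0.39, limma adjusted p = 0.0355) and under median-of-ratios scaling (-0.38, limma adjusted p = 0.0278). With library totals made equal without immunoglobulin genes and CTBP2 almost nothing was left of the decrease by marker genes (-0.03, limma adjusted p = 0.908), and it shrank to -0.17 in the 6 libraries (0.415). Quantile normalization gave -0.12 by marker genes (limma adjusted p = 0.522). An antisense gene, AZIN1-AS1, overlaps the locus in the annotation, and whether counting used strand is not given.

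Of the breakdown enzymes, SAT1 (spermidine/spermine acetyltransferase, Entrez 6303), which acetylates polyamines for oxidation or export, was at 10.2 and 12.2 FPKM in MM.1S EV and 19.7 and 19.1 FPKM in NCI-H929 EV. After CTBP2 transduction it was at 30.1 FPKM in MM.1S replicate 1, 35.7 FPKM in NCI-H929 replicate 1, 56.1 FPKM in the library labelled MM.1S replicate 2 and 17.6 FPKM in that labelled NCI-H929 replicate 2. That last library was above both MM.1S EV libraries, whose line genes it shares, and below both NCI-H929 EV libraries. For SAT1 the log2 fold change was 1.07 (SE 0.38 and limma adjusted p = 0.154) as labelled and did not pass. It rose by 1.10 (SE 0.16 and limma adjusted p = 0.00651) in the 6 libraries and by 1.07 (SE 0.19 and limma adjusted p = 0.00598) with the line read from marker genes.

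SMOX (spermine oxidase, Entrez 54498), which turns spermine back into spermidine with release of hydrogen peroxide, was the least abundant member. It was at 2.21 and 2.29 FPKM in MM.1S EV and 1.97 and 3.64 FPKM in NCI-H929 EV. With CTBP2 it was at 4.79 FPKM in MM.1S replicate 1, 7.10 FPKM in NCI-H929 replicate 1, 9.14 FPKM in the library labelled MM.1S replicate 2 and 5.62 FPKM in that labelled NCI-H929 replicate 2, all above EV. The log2 fold change of SMOX was 1.11 (SE 0.24 and limma adjusted p = 0.0570) as labelled, 0.98 (SE 0.20 and limma adjusted p = 0.0136) in the 6 libraries and 1.11 (SE 0.17 and limma adjusted p = 0.00406) by marker genes. At such low values the added 1 FPKM shrinks the fold: the ratio of the mean FPKM with CTBP2 to that with EV was 2.63 for SMOX and 2.28 for SAT1.

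MTAP (methylthioadenosine phosphorylase, Entrez 4507) was at 5.30 and 4.597 FPKM in MM.1S EV and 10.1 and 8.998 FPKM in NCI-H929 EV. In CTBP2 libraries it stood at 3.66 FPKM in MM.1S replicate 1, 4.96 FPKM in NCI-H929 replicate 1, 4.84 FPKM in the library labelled MM.1S replicate 2 and 3.95 FPKM in that labelled NCI-H929 replicate 2. The 4 CTBP2 libraries thus lay close together while the EV libraries of the lines stood apart. The log2 fold change of MTAP was -0.57 (SE 0.21 and limma adjusted p = 0.163) as labelled, -0.59 (SE 0.16 and limma adjusted p = 0.0342) in the 6 libraries and -0.57 (SE 0.14 and limma adjusted p = 0.0135) by marker genes. In the 6 libraries the call of MTAP was lost without any 1 of the 4 EV libraries, with limma adjusted p = 0.0792 and 0.0535 without MM.1S EV replicate 1 and 2 and 0.0949 and 0.0670 without NCI-H929 EV replicate 1 and 2. In the marker-gene fit it stood without each library in turn and was lost with no filter on low values (limma adjusted p = 0.0515).

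**Figure D2:**
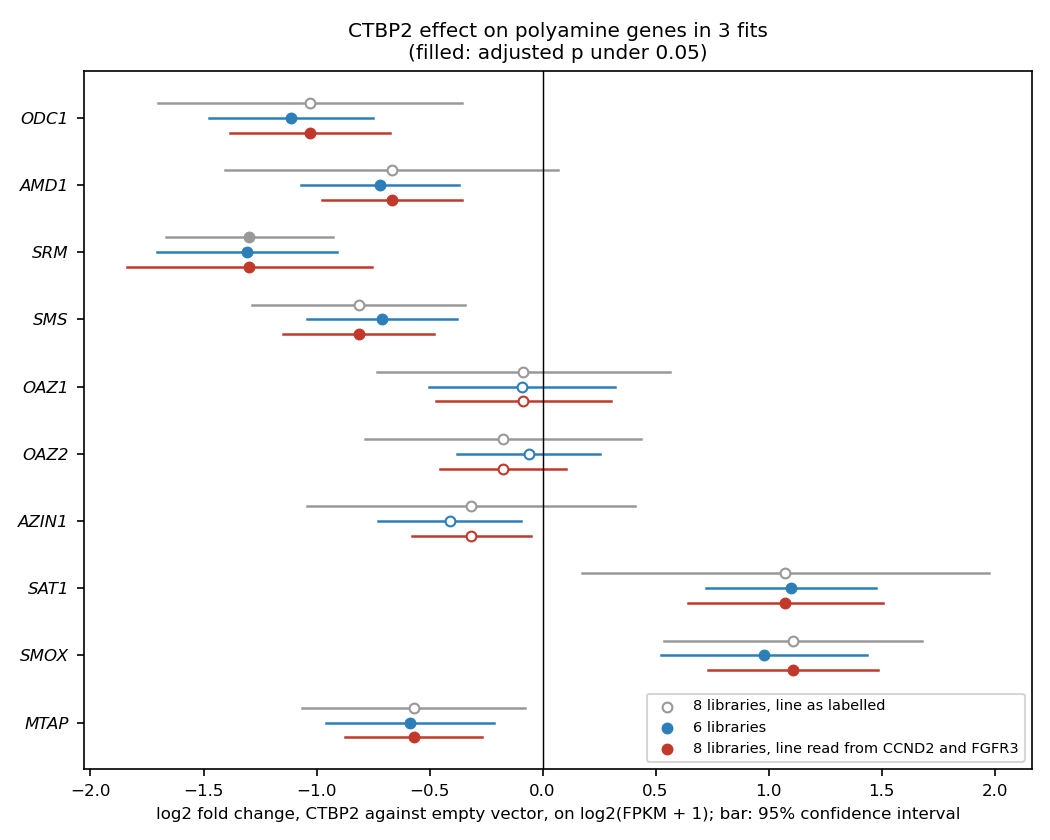
Log2 fold change of each member, CTBP2 against EV, with 95% confidence intervals, in the 8 libraries as labelled (grey), the 6 libraries (blue) and the 8 libraries with the line read from CCND2 and FGFR3 (red), with filled points where the limma adjusted p was under 0.05. Filled points are SRM alone in grey and the same 7 members in blue and red, and the OAZ1 and OAZ2 intervals cross 0, with values that turn positive when library totals are made equal.

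The sum of FPKM over all genes was itself lower with CTBP2, at 459733 to 544210 in the 4 CTBP2 libraries and 547097 to 659837 in the 4 EV libraries. With totals made equal after leaving out immunoglobulin genes and CTBP2, the median log2 fold change of all genes moved from 0.04 to 0.27, and calls over all genes from 192 higher and 228 lower to 484 higher and 57 lower as labelled, where median-of-ratios scaling gave 198 and 383. By marker genes they moved from 2186 and 2101 to 3761 and 868, and in the 6 libraries from 1449 and 1633 to 2570 and 770. Under this scaling SAT1, SMOX, ODC1 and SRM passed in the 6 libraries, these and SMS by marker genes, and SMOX and SRM as labelled, each in its former direction. SRM was then at -1.001 on the log2 scale as labelled, still under the median of all genes. AMD1 (limma adjusted p = 0.05002) and MTAP (0.112) were no longer called by marker genes.

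Ratios of 2 members within a library do not depend on how the library was scaled, and they were chosen here after the values had been seen, so they carry no test. SRM over SAT1, a synthesis transcript over a breakdown transcript, was 17.4 and 19.7 in MM.1S EV and 21.3 and 18.4 in NCI-H929 EV. With CTBP2 it was 2.82 in MM.1S replicate 1, 4.24 in NCI-H929 replicate 1, 1.70 in the library labelled MM.1S replicate 2 and 7.81 in that labelled NCI-H929 replicate 2. The EV libraries of both lines shared nearly one value, although SRM and SAT1 were each higher in NCI-H929, and all CTBP2 libraries were far below it. OAZ1 over ODC1, antizyme transcript over that of its target, was 3.51, 4.11, 3.58 and 3.60 in the 4 EV libraries and 8.05, 7.03, 7.50 and 6.12 in the CTBP2 libraries in the same order as above. The EV and CTBP2 ranges of this ratio were also apart. ODC1 over SAT1 differed by line with EV, at 27.4 and 25.7 in the MM.1S libraries against 10.9 and 9.53 in those of NCI-H929, and reached 10.3 in the CTBP2 library labelled NCI-H929 replicate 2, so its ranges overlapped. OAZ1 over OAZ2 was 29.8 to 41.9 over all 8 libraries.

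**Figure D3:**
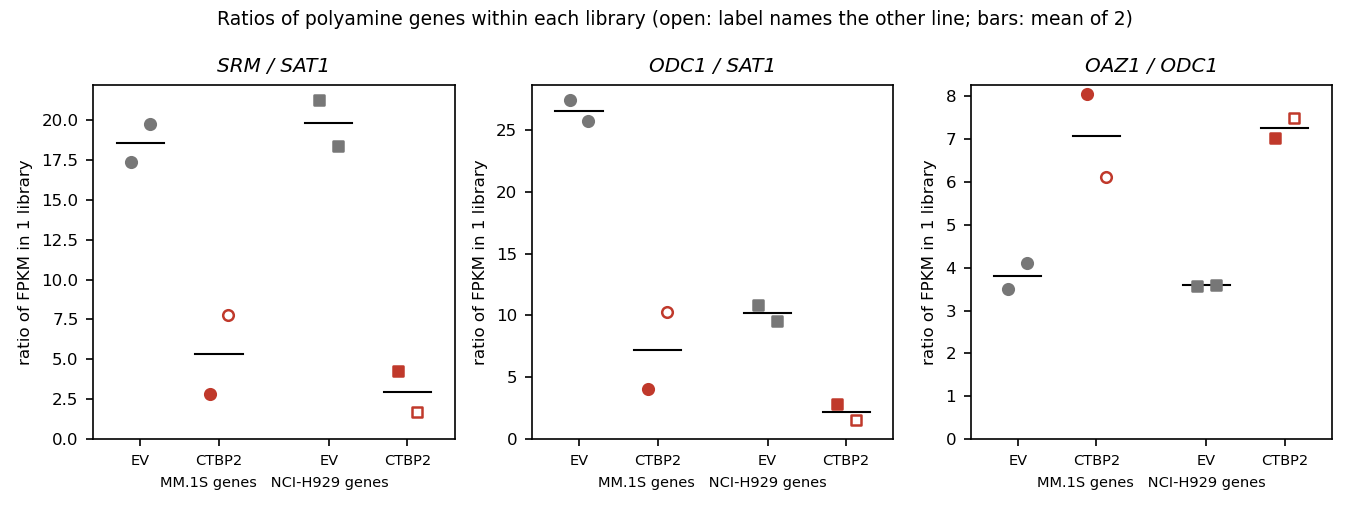
Ratio of the FPKM of 2 members within each library on a linear axis, EV in grey and CTBP2 in red, circles for libraries with MM.1S genes, squares for those with NCI-H929 genes, open symbols for the 2 libraries whose label names the other line and bars for means of 2. SRM over SAT1 lies at 17.4 to 21.3 with EV and 1.70 to 7.81 with CTBP2, and OAZ1 over ODC1 lies at 3.51 to 4.11 with EV and 6.12 to 8.05 with CTBP2.

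The size of the departure differed between CTBP2 libraries. Set against the mean of the EV libraries with the same line genes on the log2 scale, SRM was at -1.28 in MM.1S replicate 1, -1.33 in NCI-H929 replicate 1, -1.99 in the library labelled MM.1S replicate 2 and -0.59 in that labelled NCI-H929 replicate 2. That last library, which had the lowest CTBP2 level of the 4 at 1621 FPKM, also had the smallest departures of ODC1 (-0.71), AMD1 (-0.37), SAT1 (0.61) and MTAP (-0.26). For SMS, SMOX and AZIN1 it did not: SMS was at -0.63 against -0.59 in NCI-H929 replicate 1, SMOX at 1.03 against 0.83 in MM.1S replicate 1, and AZIN1 at -0.33 against -0.11 in the library labelled MM.1S replicate 2. NCI-H929 replicate 1, with the highest CTBP2 level at 5884 FPKM, had the largest departure for none of these members but AZIN1 (-0.47), and the smallest for SMS. In both libraries labelled MM.1S CTBP2 and in that labelled NCI-H929 CTBP2 replicate 2, 8 members lay below the EV mean and 2 above. In NCI-H929 CTBP2 replicate 1, where OAZ1 (0.02) and OAZ2 (0.09) were level with EV, 6 lay below and 4 above.

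Taken line by line with the labels as given, 0 of the 10 members passed in MM.1S and 0 in NCI-H929 (limma, adjusted p under 0.05), where 0.0238% and 0.0556% of all genes did. At an unadjusted p under 0.05 limma counted 6 members in MM.1S and 3 in NCI-H929, where 19.3% and 16.6% of all genes reached it. With the line read from marker genes, ODC1 alone passed in MM.1S, with a log2 fold change of -0.99 (SE 0.23 and limma adjusted p = 0.0474), against a background of 1.80% of genes lower and 3.67% higher. That call was at the edge. It was lost without either MM.1S EV library (0.163 and 0.238 as limma adjusted p), either NCI-H929 EV library (0.0807 and 0.0808), MM.1S CTBP2 replicate 1 (0.352) or the library labelled NCI-H929 replicate 2 (0.0524). With equal totals ODC1 was lost (0.0516) and SMOX, higher, passed in its place. In MM.1S so read, SMOX (0.93, limma adjusted p = 0.0534), SAT1 (0.98, 0.0759), SMS (-0.73, 0.0806), SRM (-0.93, 0.107) and AMD1 (-0.58, 0.108) did not pass.

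In NCI-H929 read from marker genes, 7 members passed, 5 lower and 2 higher, where 14.6% of all genes were lower and 18.3% higher. SRM fell by 1.66 (SE 0.31 and limma adjusted p = 0.00740), ODC1 by 1.07, SMS by 0.90, MTAP by 0.84 and AMD1 by 0.75, while SMOX rose by 1.29 and SAT1 by 1.17. Without NCI-H929 EV replicate 1 SMOX alone passed, and without the CTBP2 library labelled MM.1S replicate 2 SRM, ODC1, MTAP and SMOX did. In the 6 libraries, where 1 CTBP2 library per line is assumed to vary like the other groups, SRM, ODC1, SMS and SAT1 passed in MM.1S (5.56% of genes lower and 5.80% higher) and SRM, ODC1, MTAP, SAT1 and SMOX in NCI-H929 (6.52% and 8.81%).

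These line-by-line counts do not show that the lines differ in their response. The difference itself, NCI-H929 effect minus MM.1S effect, passed for 0 of the 10 members as labelled, 0 in the 6 libraries and 0 by marker genes (limma, adjusted p under 0.05), where 0.0159%, 0.350% and 1.26% of all genes passed. At an unadjusted p under 0.05 limma counted 2 members as labelled, MTAP and SAT1, 0 in the 6 libraries and 1 by marker genes, MTAP, where 7.25%, 13.0% and 15.4% of all genes reached it. By marker genes MTAP had the difference nearest to a call, -0.53 with a 95% confidence interval of -1.01 to -0.06 (limma adjusted p = 0.270), and in the 6 libraries its difference was -0.47 (-1.12 to 0.18, limma adjusted p = 0.516). By marker genes the difference of SRM was -0.73 (-1.74 to 0.28, limma adjusted p = 0.488) and for ODC1 -0.07 (-0.82 to 0.68, limma adjusted p = 0.955), intervals wide enough to hold a difference as large as the mean effect of AMD1. In the 6 libraries SRM was at -0.06 (-0.93 to 0.82, limma adjusted p = 0.965) and ODC1 at 0.33 (-0.40 to 1.06, limma adjusted p = 0.705).

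Before any CTBP2, most members were called different between the lines, in a comparison where calls were common and depended on single libraries. Among the 4 EV libraries 8 of 10 passed, 4 higher and 4 lower in NCI-H929, in a comparison where 23.6% of all genes were called higher and 30.9% lower. SRM (0.88, SE 0.22, limma adjusted p = 0.0131), AZIN1 (0.78, 0.00555), SAT1 (0.74, 0.00674) and MTAP (0.83, 0.00449) were higher in NCI-H929. ODC1 (-0.59, SE 0.18, limma adjusted p = 0.0318), AMD1 (-0.66, 0.0172), OAZ1 (-0.67, 0.0488) and OAZ2 (-0.62, 0.0100) were lower. SMS and SMOX did not pass, at -0.20 (limma adjusted p = 0.307) and 0.19 (0.493). ODC1 and OAZ1 were no longer called under median-of-ratios scaling (limma adjusted p = 0.0847 and 0.107), nor OAZ1 with a pseudocount of 0.1 (0.0549), while the other 6 passed in both. These calls depended on each library: without MM.1S EV replicate 1 only AZIN1 and MTAP passed, without its replicate 2 only SRM and SAT1, without NCI-H929 EV replicate 1 only AZIN1 and AMD1, and without its replicate 2 only MTAP, at limma adjusted p from 0.0324 to 0.0490. With no filter on low values 3 passed, and with a spread estimated over all 8 labelled libraries 0. Directions held in these fits except for SMOX (-0.13 without NCI-H929 EV replicate 2).

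**Figure D4:**
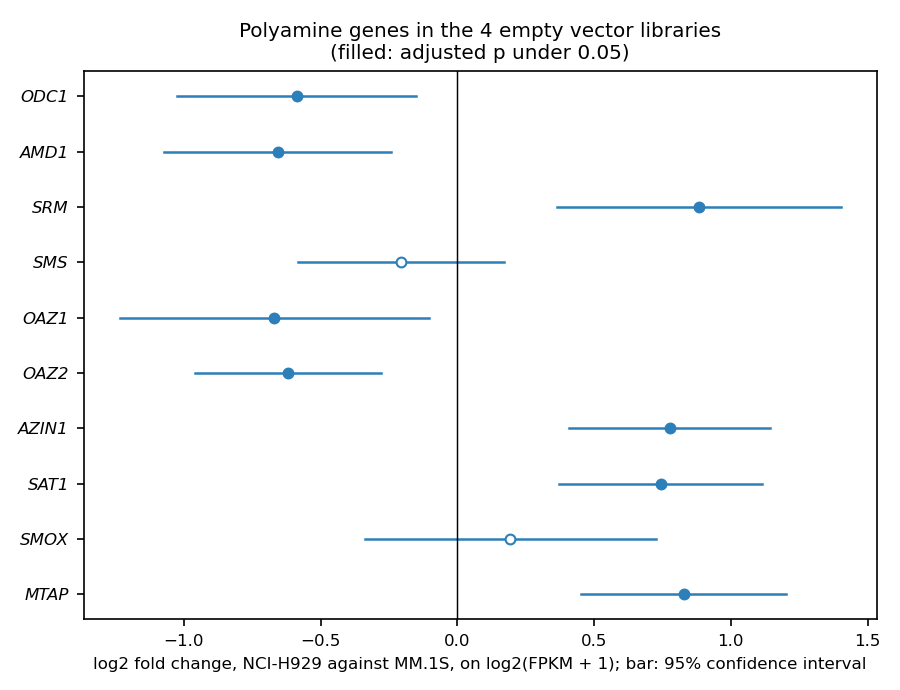
Log2 fold change of each member between the lines in the 4 EV libraries, NCI-H929 against MM.1S, with 95% confidence intervals and filled points where the limma adjusted p was under 0.05. SRM, AZIN1, SAT1 and MTAP lie to the right, ODC1, AMD1, OAZ1 and OAZ2 to the left, and SMS and SMOX have open points.

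Within the EV libraries the levels covered a wide span. OAZ1 averaged 922.6 FPKM, more than 99.22% of the genes tested, followed by SRM at 296.8 FPKM and ODC1 at 247.3 FPKM, whose ranges overlapped. AMD1 (38.4 FPKM), AZIN1 (34.4 FPKM), SMS (28.7 FPKM) and OAZ2 (26.6 FPKM) came next, and each overlapped its neighbour in this order. SAT1 (15.3 FPKM), MTAP (7.25 FPKM) and SMOX (2.53 FPKM) were lower, with ranges apart from each other, and SMOX exceeded 24.64% of the genes tested. Synthesis transcripts thus stood above breakdown transcripts in every EV library.

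Genes around the path were read from a list of 24, of which 22 had enough signal to test and ARG1 and MAT1A did not. None of the 22 passed in the 8 libraries as labelled (limma, adjusted p under 0.05), and 8 did at an unadjusted p under 0.05, where 22.7% of all genes did. In the 6 libraries 1 was higher and 3 lower, where 11.5% of all genes were higher and 13.0% lower. By marker genes 3 were higher and 5 lower, beside 17.4% and 16.7% of all genes, so these shares are near or below the background except for the 5 lower. The balance turned with library totals made equal without immunoglobulin genes and CTBP2: 4 were higher and 2 lower in the 6 libraries (20.4% and 6.12% of all genes), and 6 higher and 2 lower by marker genes (29.9% and 6.90%). EIF5A and ALDH18A1 were the 2 lower in both. Median-of-ratios scaling gave 2 higher and 8 lower by marker genes. EIF5A, which encodes the protein that carries hypusine, was at 583.2 and 713.3 FPKM in MM.1S EV, 746.5 and 616.6 FPKM in NCI-H929 EV and 198.7 to 467.3 FPKM in the 4 CTBP2 libraries. All CTBP2 libraries were below all EV libraries, as for 7.45% of all genes tested. Log2 fold changes of EIF5A were -0.97 (SE 0.25 and limma adjusted p = 0.0169) by marker genes, -0.83 (SE 0.16 and limma adjusted p = 0.0126) in the 6 libraries and -0.97 (limma adjusted p = 0.0755) as labelled. By marker genes the call was lost without MM.1S CTBP2 replicate 1 (limma adjusted p = 0.0526) or NCI-H929 EV replicate 1 (0.0537), and in the 6 libraries it stood without each EV library. Of the other hypusine genes, DHPS and DOHH, the enzymes of the modification, and EIF5A2 did not pass in any of the 3 fits.

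Upstream of ODC1, ALDH18A1, which starts the synthesis of proline and ornithine from glutamate, was at 20.9 to 36.0 FPKM with EV and 14.0 to 19.7 FPKM with CTBP2. All CTBP2 libraries of ALDH18A1 lay below all EV libraries, as for 7.45% of all genes. It fell by 0.72 (SE 0.12 and limma adjusted p = 0.00456) by marker genes and by 0.79 (SE 0.15 and limma adjusted p = 0.0113) in the 6 libraries. By marker genes ALDH18A1 passed under all 16 alternatives. ARG2, AGMAT and OAT, which also make or use ornithine or its relatives, did not pass, at log2 fold changes by marker genes of 0.05, 0.01 and 0.04. MAT2A, which makes the S-adenosylmethionine that AMD1 uses, was at 81.0 to 94.0 FPKM with EV and 56.7 to 76.1 FPKM with CTBP2, and passed by marker genes (-0.39, limma adjusted p = 0.0397) but not in the 6 libraries (-0.38, limma adjusted p = 0.0822). That call was lost without any 1 of 6 libraries, all but the CTBP2 libraries labelled NCI-H929 (limma adjusted p = 0.0531 to 0.115). Its regulatory subunit MAT2B did not pass by marker genes (0.37, limma adjusted p = 0.0724), but did, as a rise, with equal totals there and in the 6 libraries. All CTBP2 libraries of MAT2B (52.8 to 82.6 FPKM) lay above all EV libraries (48.3 to 50.8 FPKM), as for 7.21% of all genes.

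Downstream of MTAP, ENOPH1 passed by marker genes (-0.43, limma adjusted p = 0.0432), and MRI1 (0.02), APIP (-0.40) and ADI1 (-0.31) did not. The call of ENOPH1 was lost without any 1 library other than the CTBP2 library labelled NCI-H929 replicate 2 (limma adjusted p = 0.0513 to 0.126). Among transporters, the vesicular polyamine transporter SLC18B1 was higher in the 6 libraries (0.73, SE 0.15, limma adjusted p = 0.0152) and by marker genes (0.54, limma adjusted p = 0.0298), from 1.60 to 2.45 FPKM with EV to 2.16 to 4.20 FPKM with CTBP2. SLC18B1 was no longer called by marker genes without the replicate 1 CTBP2 library of MM.1S or NCI-H929 or the replicate 2 EV library of either (limma adjusted p = 0.0674 to 0.0861), nor in the 6 libraries without MM.1S EV replicate 2 (0.0509). ATP13A3, a polyamine uptake pump, was lower by marker genes (-0.45, limma adjusted p = 0.0184), SLC3A2, a subunit of amino acid transporters tied to polyamine export, was lower in the 6 libraries (-0.79, limma adjusted p = 0.0352), and ATP13A2 (-0.01) passed in neither. ATP13A3 was lost without NCI-H929 EV replicate 1 (limma adjusted p = 0.0583) or 2 (0.0515), and SLC3A2 without MM.1S EV replicate 2 (0.0704) or NCI-H929 EV replicate 1 (0.0901). Of the catabolism and antizyme paralogs, OAZ3 (0.61, limma adjusted p = 0.0153) and AZIN2 (0.40, limma adjusted p = 0.0443) were higher by marker genes at low levels, up to 3.30 and 1.19 FPKM, and PAOX and SAT2 did not pass. With equal totals both were called higher by marker genes, and SAT2 in the 6 libraries. All CTBP2 libraries of OAZ3 (1.87 to 3.30 FPKM) lay above all EV libraries (1.09 to 1.53 FPKM), as for 7.21% of all genes. OAZ3 passed without each library in turn, while AZIN2 was lost without any 1 of 6 libraries, all but MM.1S EV replicate 1 and NCI-H929 CTBP2 replicate 1 (limma adjusted p = 0.0735 to 0.111).

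**Figure D5:**
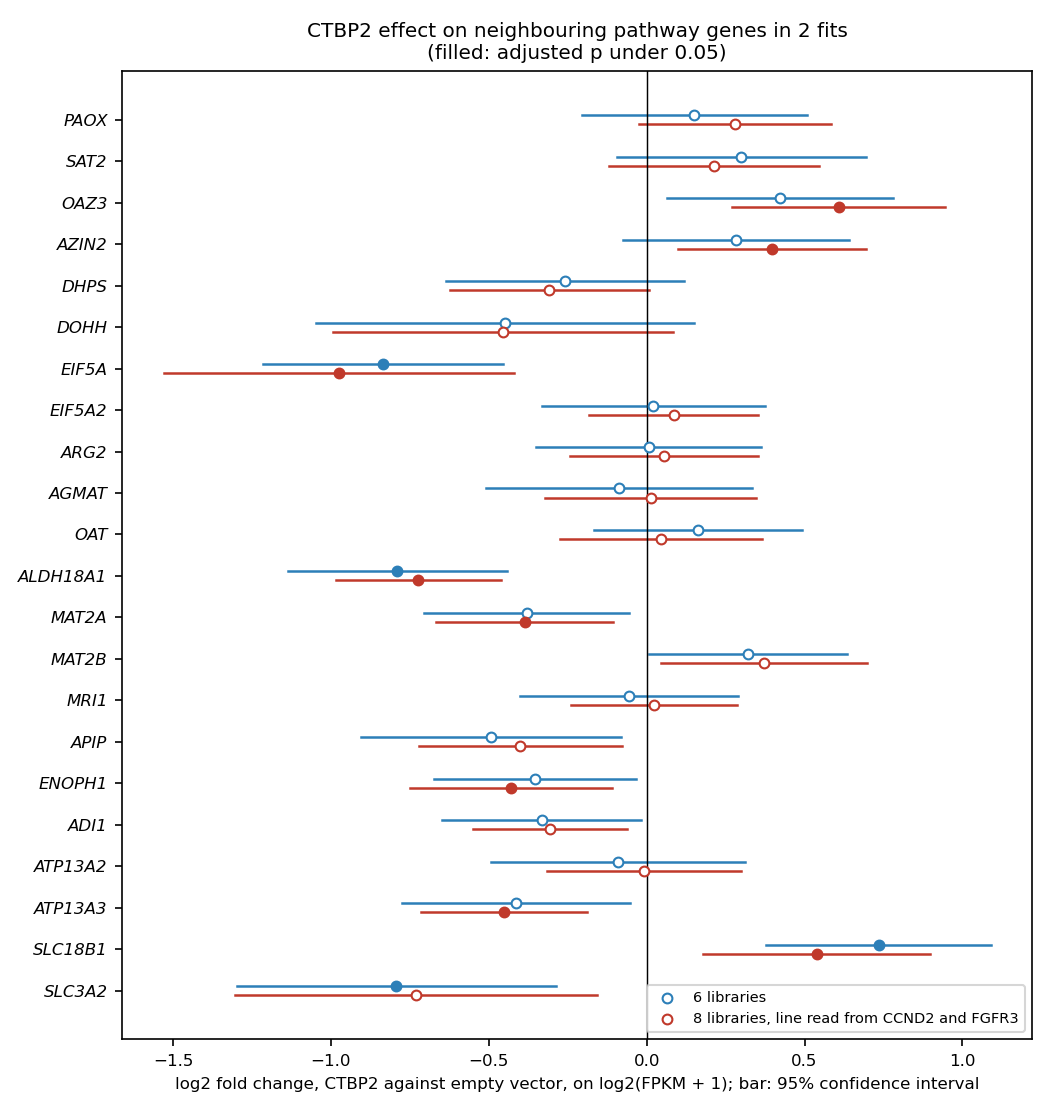
Log2 fold change with 95% confidence interval, CTBP2 against EV, of the 22 tested genes around the polyamine path in the 6 libraries (blue) and in the 8 libraries with the line read from CCND2 and FGFR3 (red), with filled points where the limma adjusted p was under 0.05. EIF5A and ALDH18A1 are filled to the left of 0 and SLC18B1 to the right in both fits.

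The genes whose pattern over the 8 libraries was most like that of 3 members were found by Pearson's r of log2(FPKM + 1) among all genes tested. The libraries share vector and line, so high values are common, and r is given as a description. For SRM they were FABP5 (r = 0.997), DRG1 (0.996), LSM10 (0.994), NUP35 (0.993) and NLE1 (0.991). For ODC1 they were UBA2 (0.997), HELLS (0.996), SF3B3 (0.994), APITD1 (0.994) and MRPS26 (0.994). For SAT1 they were BRD3 (0.989), TAX1BP1 (0.985), LRRC56 (0.982), FAM229B (0.979) and CDC14B (0.978).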

How the data were processed

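Total RNA of the 8 samples went through a TruSeq kit, as the labels' protocols state. Tools named in the submitters' processing notes were FastQC 0.11.7 and Trimmomatic 0.36.5, then STAR 2.6.0b-1 with HTSeq 0.9.1 and DESeq2 2.11.40.2, on GRCh37 (hg19). The authors deposited FPKM values, a unit read from the table's name and values, and the tool that made them is not given in the sources used here. Steps between low values put depth at 16200000 to 21200000 fragments per library, with 54.65 to 62.85% of such values whole within 0.1 (20% by chance), too few for a count test. A gene was kept if 2 or more libraries reached 1 FPKM, which left 12583, fitted as log2(FPKM + 1) in limma 3.58.1 (R 4.3.3), with a mean-variance trend and Benjamini-Hochberg adjustment over all of them. Both lines together used terms for line and vector, comparisons within a line 1 mean per group over all libraries, and the baseline the 4 EV libraries alone. The 10 members, 24 neighbouring genes, MYC and the 5 genes most like SRM, ODC1 and SAT1 were named by rule, and members and lists were chosen with earlier results of these data known. As alternatives the pseudocount was 0.1, the filter was dropped or raised to 5 FPKM, other scalings were used, and the variance trend, the line term or single libraries were left out or a replicate block added. Most of these on the 6-library and marker-gene fits were added after seeing the data. Code was tested on simulated data.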

Additional observations from a re-analysis of the deposited data

How the results depend on the processing

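With 2 libraries per group and 2 libraries against their line label, how many of the 10 members pass depends on how those libraries are handled. As labelled, 1 passed in both lines together, and 7 without both libraries, 7 with the line read from marker genes, 2 with equal totals (without immunoglobulin genes and CTBP2), 0 without a line term and 0 to 3 with 1 library left out. Of the neighbouring genes 0 passed as labelled, 4 without both libraries and 8 by marker genes. Within labelled MM.1S the counts were 0, 4 and 1, and within NCI-H929 0, 5 and 7. Dropping the filter on low values, which adds genes, gave 3 of the 8 members called between lines in EV libraries, 0 of the 7 called in the 6 libraries (0 of 4 neighbouring genes), 2 of the 7 in NCI-H929 and 0 of 1 in MM.1S by marker genes, and 3 of 8 neighbouring genes by marker genes. The lone MM.1S call was also lost (0) with a pseudocount of 0.1, a filter of 5 FPKM or median-of-ratios scaling, and with equal totals SMOX was called in place of ODC1. Between lines in EV libraries the count was 0 when all 8 labelled libraries shared a spread. Equal totals left 4 of 7 in the 6 libraries and 4 of 7 in NCI-H929 by marker genes. Neighbouring genes by marker genes numbered 5 with a filter of 5 FPKM and 3 under quantile normalization, and AZIN2, OAZ3 and SLC18B1 were then not tested at 5 FPKM.

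With 1 library left out, 1 to 2 members passed between lines in EV libraries, 7 to 8 in both lines by marker genes and 5 to 6 in the 6 libraries. By marker genes 0 to 4 passed within MM.1S and 1 to 7 within NCI-H929. Neighbouring genes then numbered 2 to 4 in the 6 libraries and 3 to 10 by marker genes.

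Replicate numbers are tied to no shared culture by the labels. Deviations of same-numbered libraries correlated at 0.012 to 0.109 between groups, except the pair of CTBP2 groups (-0.892). In that pair both replicate 2 libraries express the genes of the other line. With the replicate block, 0 members passed as labelled and SRM had a limma adjusted p of 0.0949. By marker genes the block left 7 members and 5 neighbouring genes called, and within MM.1S SMOX was called in place of ODC1 (0.0770 as limma adjusted p). Between lines in EV libraries 6 of 8 members were called with the block, without ODC1 (limma adjusted p = 0.130) and OAZ1 (0.177).

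Over 74 fold changes and their 1064 alternatives, 858 kept direction and side of the threshold, 154 lost a call, 30 gained one and 22 reversed. The reversed values had not passed in the fit they are set against. OAZ1 turned positive under quantile normalization (0.25 as labelled and by marker genes, 0.088 in the 6 libraries) and with equal totals (0.21 and 0.16), and ranged from -0.29 to 0.12 as labelled and from -0.16 to 0.0072 in the 6 libraries with 1 library left out. OAZ2 turned positive with equal totals (0.11 and, in the 6 libraries, 0.18) and under quantile normalization in the 6 (0.10), and ranged from -0.34 to 0.077 with 1 left out. SMOX between lines ranged from -0.13 to 0.51. AZIN2 was at -0.039 in the 6 libraries under quantile normalization. The difference of ODC1 between lines was 0.054 under quantile normalization, 0.14 with equal totals and -0.36 to 0.21 with 1 left out. The cause was not tested. The counting error of genes at low levels, such as SMOX, was not estimated.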
